A study of Mus musculus with 6 samples.

Results

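The Wnt ligands, their Frizzled and LRP receptors, the R-spondins and Lgr receptors, the secreted Wnt inhibitors and the Axin scaffolds were examined in the brains of 7-day-old mice given ethanol. The members are the genes whose platform symbol names one of these families, read from probesets that the annotation pairs with a single gene. They number 50 of the 19938 named genes on the array: 19 Wnt ligands, 10 Frizzled receptors, 2 LRP co-receptors, 7 R-spondin and Lgr genes, 9 secreted inhibitors, 2 Axins and Fzd10os, a transcript from the strand opposite Fzd10 that the symbol pattern also takes in. All mice were C57BL/6J males at postnatal day 7. Ethanol pups received 2 subcutaneous injections of 2.5 g/kg ethanol, made up as a 20% solution in saline, 2 h apart, and control pups received the saline vehicle. Whole brains were taken 4 h after the first injection. There were 2 ethanol arrays (numbered 2 and 4 in the labels) and 4 saline arrays (1, 3, 5 and 6), each holding RNA pooled from 3 males of different litters, so that pup-to-pup variation within a pool is not seen. The dam was out of the cage during the injections of both groups, and ethanol pups had saline-treated littermates among the controls.

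Wnt proteins are secreted lipid-modified ligands that bind Frizzled receptors. In the canonical branch a Frizzled pairs with the co-receptor Lrp5 or Lrp6, the Axin-based complex that destroys beta-catenin is disabled, and beta-catenin joins TCF/LEF factors to switch on genes, Axin2 among them as a negative feedback. Sfrp and Wif1 proteins trap Wnts, Dkk1 blocks the LRP co-receptors, and R-spondins acting through Lgr4 to Lgr6 keep Frizzleds on the cell surface. In the developing brain the pathway is known for roles in patterning, precursor division, axon and synapse formation and the growth of brain vessels.

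Promoters are printed for 3 members, because the canonical pathway acts on its targets through DNA: Fzd9, the leading lower member with a sequence entry, Axin2, the textbook feedback target, and Dkk1, whose window holds a TCF/LEF motif. Sequences are from RefSeq (GRCm38.p6), 5′ to 3′ on the gene's strand, 250 bases before to 50 after the start. Capitals mark the letters CTTTGAT or CTTTGAA, searched on both strands.
Fzd9: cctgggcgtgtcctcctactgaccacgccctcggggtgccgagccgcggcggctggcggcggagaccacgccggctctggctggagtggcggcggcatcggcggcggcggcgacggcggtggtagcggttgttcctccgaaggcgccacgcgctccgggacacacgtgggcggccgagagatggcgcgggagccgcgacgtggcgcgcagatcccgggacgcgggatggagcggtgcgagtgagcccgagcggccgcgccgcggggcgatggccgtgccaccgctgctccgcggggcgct
Axin2: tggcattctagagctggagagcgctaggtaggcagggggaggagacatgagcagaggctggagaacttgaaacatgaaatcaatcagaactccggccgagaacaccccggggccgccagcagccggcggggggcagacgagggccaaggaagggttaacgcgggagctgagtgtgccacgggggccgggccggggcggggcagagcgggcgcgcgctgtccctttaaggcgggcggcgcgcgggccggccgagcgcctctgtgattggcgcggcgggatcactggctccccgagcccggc
Dkk1: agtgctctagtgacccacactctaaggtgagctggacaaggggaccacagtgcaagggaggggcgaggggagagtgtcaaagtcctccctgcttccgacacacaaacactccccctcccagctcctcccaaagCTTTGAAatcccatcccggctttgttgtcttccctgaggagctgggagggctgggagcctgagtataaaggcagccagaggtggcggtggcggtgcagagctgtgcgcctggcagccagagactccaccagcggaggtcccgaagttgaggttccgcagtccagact

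These windows are chr5:135250998-135251297 on the minus strand for Fzd9, chr11:108920099-108920398 on the plus strand for Axin2 and chr19:30549447-30549746 on the minus strand for Dkk1. Entries existed for 31 of the 50 genes, with 34 windows in all. The motif letters occurred in 3 of the 34 windows, or 8.82%, against 8.65% of all 32851 windows of the same length. The other windows with a match belonged to Wnt11 and to 1 of the 3 starts of Wnt5b. The median member window held 26.5 CpG dinucleotides, where the median over all windows was 7, and the Fzd9 window held 53, the Axin2 window 31 and the Dkk1 window 9. A match in these letters is a description of the window and was not read as a binding site.

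Levels below are the deposited log2 values. Differences are log2, ethanol minus saline, with the standard error (SE) of a limma fit over all tested genes, and p-values were adjusted over those genes. The background guide is 6.21, the 95th percentile of mean levels over 1194 chemosensory (olfactory and vomeronasal) receptor genes. The dimmest 25% of genes, up to 5.55, were not tested. Of the 50 members, 37 were tested and 13 were dim, and 7 of the tested members (Dkk1, Dkk2, Fzd5, Fzd10os, Wnt3, Wnt5b and Wnt9a) lay near background, below the guide level. Neuronal markers gave the tissue check, with 10 of 10 tested and none near background (0 passed in limma, and 1 had an unadjusted p under 0.05). With 2 and 4 arrays in the groups, array number sets the precision. In whole-brain RNA fewer cells of a type and less RNA per cell cannot be told apart. On the first principal component of all tested genes saline array 3 lay far from the rest (13.5, against -2.13 to 2.95 for the other saline arrays and -7.49 and -6.61 for the ethanol arrays), so each tested member whose stated difference moved by over 1.5 times without it, or crossed an unadjusted p of 0.05, is given both ways.

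**Figure D1:**
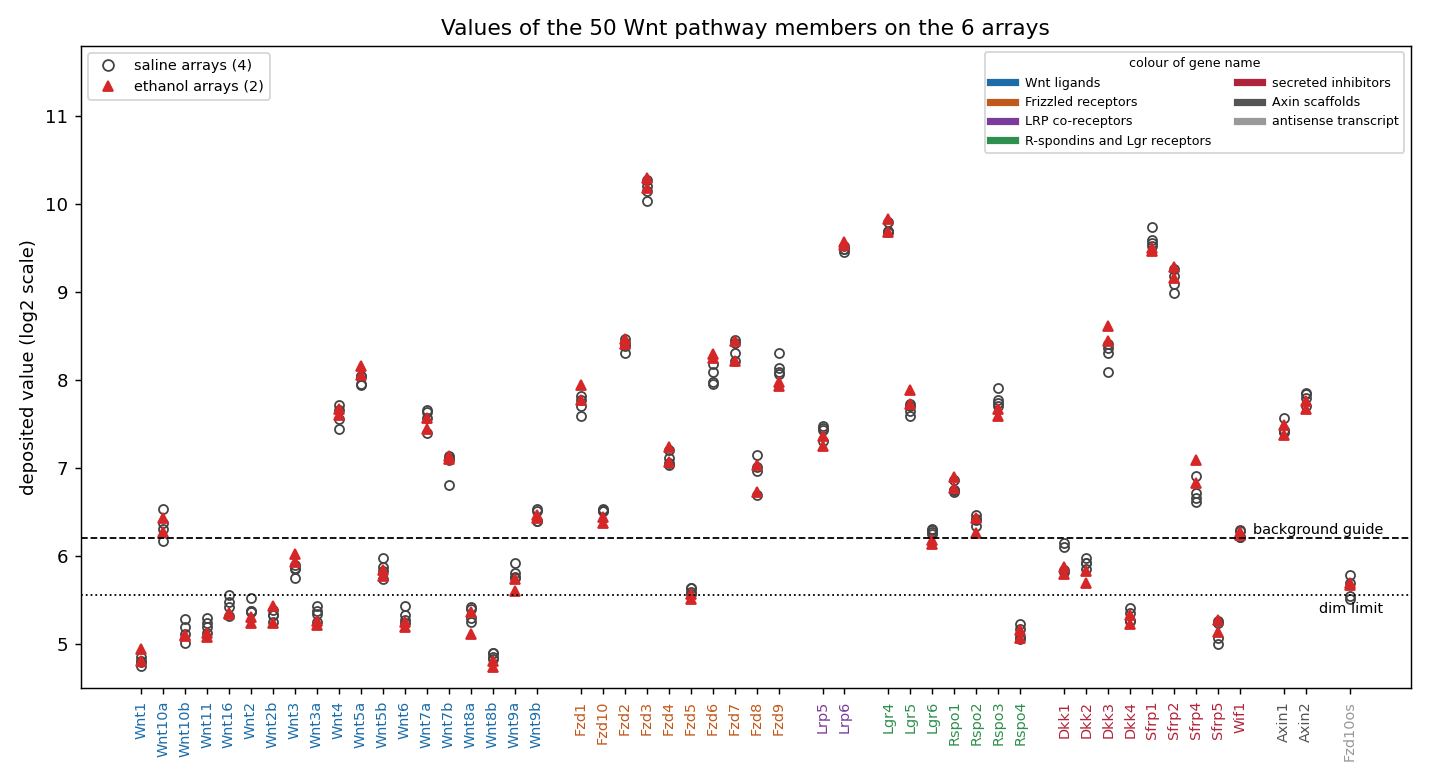
Deposited log2 value (y axis) of each of the 50 members (x axis, grouped by role through the colour of the name) on the 4 saline arrays (open circles) and 2 ethanol arrays (red triangles). The dashed line is the background guide at 6.21 and the dotted line the dim limit at 5.55; 10 of the 19 Wnt ligands lie under the dotted line, and the ethanol points lie on or close to the saline points of the same gene.

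The comparison of ethanol with saline asked whether Wnt pathway transcripts differed 4 h after the first ethanol dose. No member passed the limma test (0 of 37 at an adjusted p under 0.05, where 0.0803% of all tested genes passed, with 12 called). The smallest adjusted p of any member was 0.249, for Fzd6. At an unadjusted p under 0.05 there were 6 members in limma, or 16.2%, beside a background of 12.3% of all tested genes. Of these, 4 were higher with ethanol (Fzd6, Dkk3, Sfrp4 and Wnt3, against a background of 3.85%) and 2 lower (Fzd9 and Dkk2, against 8.44%). With the arrays centred on their medians the split was 4 higher and 1 lower, and after quantile normalization 6 and 1. Over all genes the same scalings turned a split of 575 higher and 1262 lower into 843 and 1038, and 936 and 1044. The member count on the higher side was 2 without ethanol array 4, saline array 1 or saline array 6, and on the lower side 0 without ethanol array 4 and 1 without saline array 5.

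Differences were small in both directions. Of the tested members, 19 lay above 0 (51.4%, beside 41.4% of all tested genes) and 18 below. Their median was 0.0027, where the median of all tested genes was -0.019. They ran from -0.20 for Fzd9 to 0.23 for Dkk3. The 95% intervals of all 37 lay inside -0.36 and 0.43, that is between 0.779 and 1.35 times the saline level, so that a change of 0.5 or more on the log2 scale was outside the interval for each tested member in this fit, taken singly. This bound rests on the variance prior of the fit. With no variance prior the SE was 0.12 for Dkk3 and 0.13 for Sfrp4, and intervals from those SEs would pass 0.5. These are examples. The SDs of Fzd8 were larger, at 0.22 with ethanol and 0.19 with saline, so without the prior the bound is not claimed for the other members. For 13 of 37 members, or 35.1%, the groups did not overlap, beside 22.6% of all tested genes. Of these, 6 were above (Fzd6, Lrp6, Lgr5, Wnt3, Wnt5a and Dkk3, with a background of 7.68%) and 7 below (Fzd9, Fzd10, Lgr6, Rspo3, Wnt9a, Dkk2 and Sfrp1, with a background of 14.9%). The gap between the nearest ethanol and saline arrays was between 0.0079 for Wnt5a and 0.096 for Fzd9, while the saline arrays themselves spanned a median of 0.18. After quantile normalization 5 members lay above and 4 below, beside 11.2% and 12.7% of all tested genes.

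**Figure D2:**
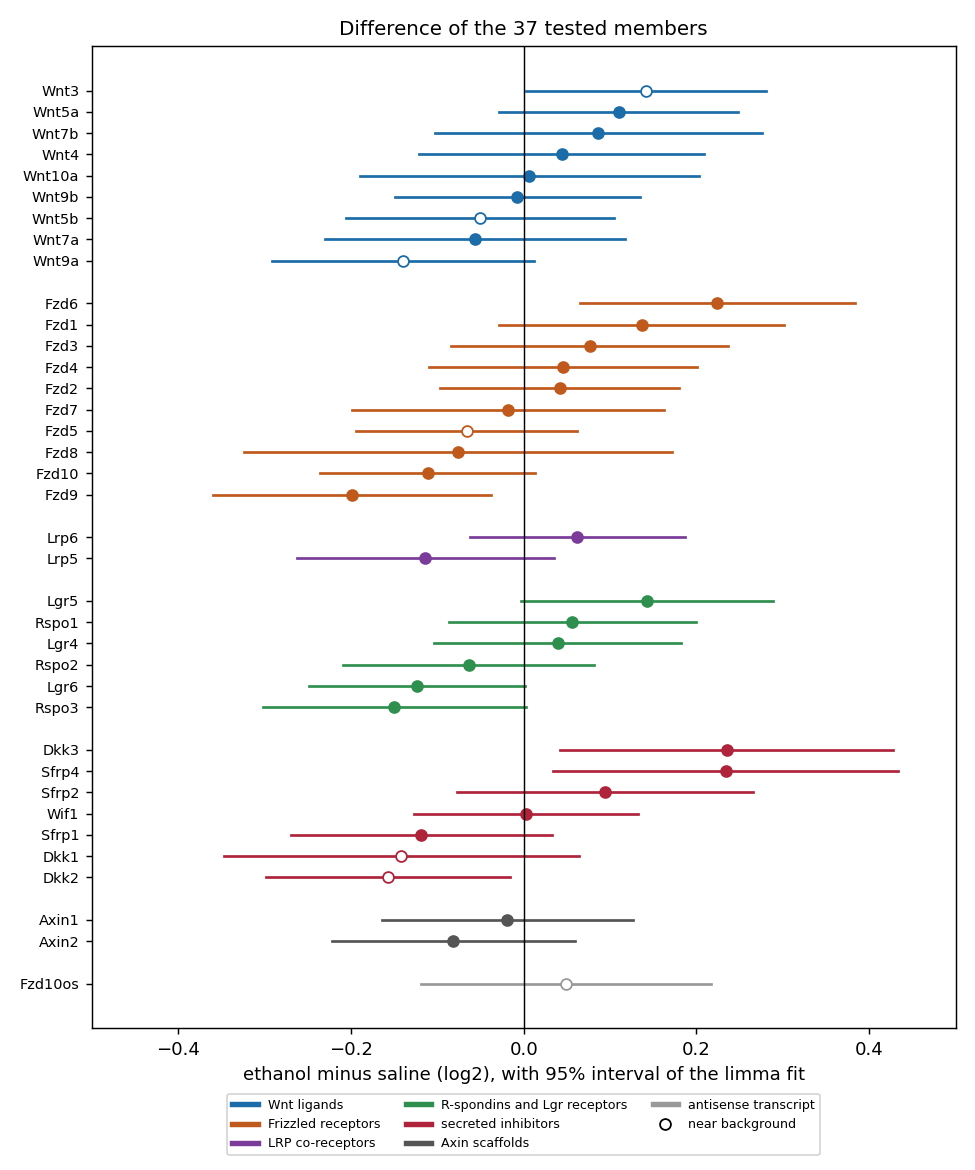
Ethanol minus saline difference (x axis, log2) of the 37 tested members, grouped by role, with the 95% interval of the limma fit as a bar; open points mark members near background. Points lie on both sides of 0 within each role of more than 2 members, and all bars end inside -0.36 and 0.43.

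Most Wnt ligand genes were not detected well in whole brain. Of 19, 10 were dim (Wnt1, Wnt2, Wnt2b, Wnt3a, Wnt6, Wnt8a, Wnt8b, Wnt10b, Wnt11 and Wnt16), 3 were near background and 6 lay above it (Wnt4, Wnt5a, Wnt7a, Wnt7b, Wnt9b and Wnt10a). Of the 9 tested ligands, 5 had differences above 0 and 4 below, and 0 of them passed. Wnt3 was the 1 ligand with an unadjusted p under 0.05 in limma (11.1% of the 9, beside 12.3% of all tested genes). Wnt5a, a ligand best known for beta-catenin-independent signalling and axon growth, was at 8.05 and 8.17 on ethanol arrays 2 and 4. On saline arrays 1, 3, 5 and 6 it was at 8.05, 7.95, 7.96 and 8.05. The lower ethanol array exceeded the highest saline array by 0.0079, so the groups barely parted. The difference was 0.11 ± 0.064 (SE, limma adjusted p = 0.518), and 0.055 without ethanol array 4.

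Wnt3, a canonical ligand near background here, had values of 6.03 and 5.94 with ethanol and 5.86, 5.75, 5.90 and 5.86 with saline. Both ethanol arrays were the higher ones, and the difference was 0.14 ± 0.064 (SE, limma adjusted p = 0.398). Without saline array 3 it was 0.11, and its unadjusted limma p went from 0.047 to 0.067. Wnt9a, also near background, was the ligand furthest in the other direction. It was at 5.74 and 5.60 with ethanol and 5.76, 5.92, 5.81 and 5.76 with saline, and ethanol array 2 sat just under the saline arrays. Its difference was -0.14 ± 0.070 (SE, limma adjusted p = 0.441), with -0.070 without ethanol array 4 and -0.21 without ethanol array 2. Wnt4, which acts in several tissues through both branches, was at 7.67 and 7.61 with ethanol and 7.45, 7.56, 7.71 and 7.66 with saline, with the ethanol arrays inside the saline range. Its difference was 0.044 ± 0.076 (limma adjusted p = 0.862). A further, dimmer probeset of Wnt4 with a mean of 5.99 gave -0.094, and the mean of both gave -0.025, so Wnt4 had no settled sign.

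Several Wnt genes sit side by side in the genome as old duplicates, and 4 such pairs were direct neighbours among protein-coding genes in the RefSeq table for GRCm38.p6. Only for Wnt9b and Wnt3 were both members of a pair tested, and they had differences of -0.0074 and 0.14 (0.011 for Wnt9b without saline array 3). In the pair of Wnt3a and Wnt9a, Wnt3a was dim and had -0.11 beside -0.14 for Wnt9a. Wnt6 was dim at -0.093 beside Wnt10a at 0.0063 (0.068 without saline array 3), and Wnt10b and Wnt1, both dim, had -0.053 and 0.071. No pair held a member that passed in limma.

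Frizzled genes went both ways, 5 above 0 and 5 below among 10 tested, and 9 of the 10 were above background. None passed in limma (0 of 10), and 2 had an unadjusted p under 0.05 (20.0%, beside 12.3% of all tested genes). Fzd6, a Frizzled known for planar polarity of hair and tissue, was at 8.26 and 8.30 on the ethanol arrays. The saline arrays 1, 3, 5 and 6 gave 7.97, 8.09, 8.19 and 7.96. All saline arrays were lower, by 0.068 at the nearest. The saline mean was 8.05 ± 0.11 (SD, n = 4) and the ethanol mean 8.28 ± 0.030 (SD, n = 2), with a difference of 0.22 ± 0.073 (SE, limma adjusted p = 0.249), or 16.8%. Over the 15 alternatives Fzd6 kept its sign, between 0.19 and 0.27, with a limma adjusted p of 0.190 to 0.655.

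Fzd9, a Frizzled expressed in neural precursors and in the hippocampus, moved the other way. Its values were 7.97 and 7.93 with ethanol and 8.31, 8.09, 8.07 and 8.13 with saline. Saline array 1 was the highest, and the 2 ethanol arrays were the lowest of the 6. The means were 8.15 ± 0.11 (SD, n = 4) and 7.95 ± 0.030 (SD, n = 2), and the difference was -0.20 ± 0.074 (SE, limma adjusted p = 0.304), or -12.9%. The alternatives gave -0.23 to -0.14 with a limma adjusted p of 0.235 to 0.710. The promoter printed above for Fzd9 holds no match to the motif letters.

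Fzd10, a receptor of the dorsal neural tube, was at 6.44 and 6.38 with ethanol and 6.51, 6.52, 6.51 and 6.54 with saline. Its saline arrays lay close together, with an SD of 0.012, and both ethanol arrays were below them. The difference was -0.11 ± 0.057 (SE, limma adjusted p = 0.458), and the opposite-strand transcript Fzd10os, near background, had a difference of 0.049. Fzd1, a canonical receptor, was at 7.77 and 7.94 with ethanol and 7.70, 7.59, 7.77 and 7.82 with saline. Ethanol array 2 fell inside the saline range and the difference was 0.14 ± 0.076 (SE, limma adjusted p = 0.502). It was 0.054 without ethanol array 4 and 0.22 without ethanol array 2.

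Fzd3 and Fzd2 had the highest deposited values of the family, although values of different probesets are not levels that can be ranked. Fzd3, which guides axon tracts through planar polarity signalling, was at 10.3 and 10.2 with ethanol and 10.2, 10.0, 10.3 and 10.2 with saline, and the groups overlapped. Its difference was 0.076 ± 0.074 (limma adjusted p = 0.717), with 0.032 without saline array 3 and 0.019 to 0.13 over the arrays left out singly. Fzd2 had 8.47 and 8.41 with ethanol and 8.42, 8.31, 8.47 and 8.39 with saline, also overlapping, and a difference of 0.041 ± 0.064 (limma adjusted p = 0.841). That was 0.013 without saline array 3 and 0.0094 to 0.074 over the arrays left out singly.

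The co-receptors had opposite signs. Lrp6, the main LRP of canonical signalling, was at 9.53 and 9.57 with ethanol and 9.46, 9.52, 9.49 and 9.49 with saline. The ethanol arrays were above the saline arrays by 0.012, and the difference was 0.062 ± 0.057 (limma adjusted p = 0.704). Lrp5, its close relative with roles in retinal and brain vessels, had 7.36 and 7.25 with ethanol and 7.44, 7.31, 7.48 and 7.46 with saline. Only saline array 3 fell among the ethanol values. The difference was -0.11 ± 0.068 (SE, limma adjusted p = 0.533), and -0.15 without saline array 3, where the groups no longer overlapped and the limma adjusted p was 0.268 (unadjusted 0.022). Without ethanol array 4 it was -0.059.

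R-spondin and Lgr genes held 7 members, of which Rspo4 was dim. The 6 tested had 3 differences above 0 and 3 below, and limma gave 0 calls and 0 members with an unadjusted p under 0.05. Rspo3, an R-spondin with known roles in vessel growth, had 7.59 and 7.67 with ethanol. It had 7.71, 7.92, 7.77 and 7.74 with saline, where array 3 was the highest. Both ethanol arrays were the lowest, and the difference was -0.15 ± 0.070 (SE, limma adjusted p = 0.414), or -0.11 without saline array 3. Lgr5, an R-spondin receptor and itself a canonical target in stem cells, was at 7.89 and 7.73 with ethanol and 7.59, 7.73, 7.65 and 7.70 with saline. Ethanol array 4 exceeded saline array 3 by 0.0094, so that the parting of the groups rests on that margin. The difference was 0.14 ± 0.067 (SE, limma adjusted p = 0.414), with 0.067 without ethanol array 2 and 0.22 without ethanol array 4. Without saline array 3 it was 0.16, and its unadjusted limma p went from 0.054 to 0.030.

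Lgr6, a related receptor, was at 6.18 and 6.13 with ethanol and 6.25, 6.30, 6.29 and 6.27 with saline. The ethanol values lay under the background guide and the saline values over it, so this difference of -0.12 ± 0.057 (SE, limma adjusted p = 0.412) was measured at the edge of detection. Lgr4, the most widely expressed of these receptors, had 9.83 and 9.69 with ethanol and 9.69, 9.70, 9.69 and 9.80 with saline. The groups overlapped, and the difference was 0.040 ± 0.066 (limma adjusted p = 0.856). Without ethanol array 2 it was -0.033.

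**Figure D3:**
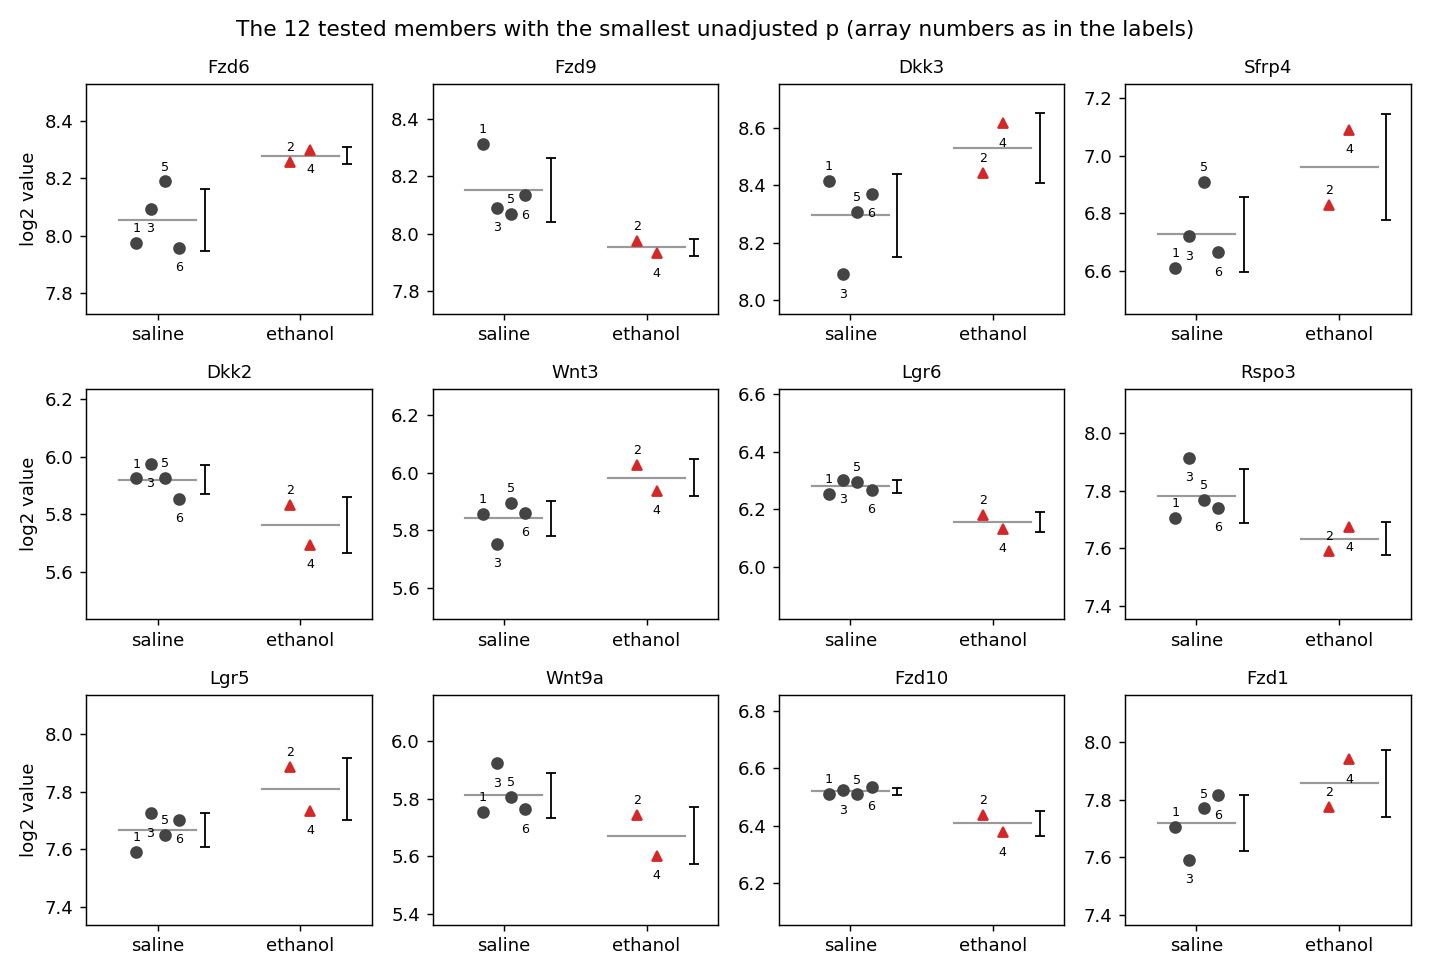
Log2 value (y axis, a span of 0.8 in each panel) of the 12 tested members with the smallest unadjusted p on the saline arrays (circles) and ethanol arrays (triangles), numbered as in the labels, with group means as lines and SDs as bars. The groups part in 10 of the 12 panels, which were picked by their small p, and overlap for Sfrp4 and Fzd1. Over all tested genes the groups part in 22.6%, and over the 37 tested members in 35.1%. None of the 12 passed in limma.

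Secreted inhibitors also split, with 4 of 7 tested members above 0 and 3 below, while Dkk4 and Sfrp5 were dim. None passed in limma (0 of 7), and 3 had an unadjusted p under 0.05 (42.9%, beside 12.3% of all tested genes). Dkk3, a Dickkopf relative whose part in Wnt signalling is less clear than that of Dkk1, had 8.44 and 8.62 with ethanol. The saline arrays gave 8.41, 8.09, 8.31 and 8.37, and saline array 3 was well under the rest. The saline mean was 8.29 ± 0.14 (SD, n = 4) and the ethanol mean 8.53 ± 0.12 (SD, n = 2), with a difference of 0.23 ± 0.089 (SE, limma adjusted p = 0.312), or 17.7%. Without saline array 3 it was 0.17 (limma adjusted p = 0.305), and over all alternatives 0.15 (without ethanol array 4) to 0.32.

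Sfrp4, a Wnt-binding inhibitor, had 6.83 and 7.09 with ethanol and 6.61, 6.72, 6.91 and 6.66 with saline. Saline array 5 exceeded ethanol array 2, so the groups overlapped. The difference was 0.23 ± 0.092 (SE, limma adjusted p = 0.332) and ranged from 0.10 without ethanol array 4 to 0.36 without ethanol array 2 over the alternatives. Dkk2, near background, was at 5.83 and 5.69 with ethanol and 5.92, 5.98, 5.93 and 5.85 with saline. Both ethanol arrays were the lowest, and the difference was -0.16 ± 0.065 (SE, limma adjusted p = 0.354), or -0.088 without ethanol array 4. Dkk1, the LRP antagonist whose printed promoter holds CTTTGAA 117 bases before the start, was near background and had a difference of -0.14 (limma adjusted p = 0.575), or -0.084 without saline array 3.

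Sfrp1 and Sfrp2, Wnt-binding inhibitors made by neural precursors, had opposite signs. Sfrp1 was at 9.47 and 9.50 with ethanol and 9.56, 9.52, 9.59 and 9.74 with saline. The ethanol arrays were the lowest by 0.022, and the difference was -0.12 ± 0.070 (SE, limma adjusted p = 0.523), or -0.073 without saline array 6. Sfrp2 was at 9.17 and 9.29 with ethanol and 9.10, 8.99, 9.26 and 9.18 with saline, with overlapping groups, and its difference was 0.094 ± 0.079 (limma adjusted p = 0.666). That was 0.045 without saline array 3 and 0.034 to 0.15 over the arrays left out singly.

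The Axins differed little. Axin2, the feedback target often read as a reporter of canonical signalling, was at 7.68 and 7.76 with ethanol and 7.80, 7.84, 7.71 and 7.85 with saline. Saline array 5 fell between the ethanol arrays. The difference was -0.081 ± 0.065 (limma adjusted p = 0.643), with a 95% interval of -0.22 to 0.059, and was -0.039 without ethanol array 2 and -0.12 without ethanol array 4. Axin1, the constitutive scaffold of the destruction complex, had 7.49 and 7.38 with ethanol and 7.41, 7.42, 7.43 and 7.56 with saline, and a difference of -0.019 ± 0.067 (limma adjusted p = 0.943). Its sign turned without ethanol array 4 (0.036) and without saline array 6 (0.017), and it was -0.032 without saline array 3.

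The other 14 tested members (Fzd4, Fzd5, Fzd7, Fzd8, Rspo1, Rspo2, Wnt5b, Wnt7a, Wnt7b, Wnt9b, Wnt10a, Dkk1, Wif1 and Fzd10os) had differences between -0.14 and 0.086, with overlapping groups in each and a smallest limma adjusted p of 0.575. Without saline array 3 these ran from -0.16 for Fzd8 to 0.068 for Fzd10os, and the groups still overlapped in each. The 13 dim members had means of 4.83 to 5.41, against a median of 5.35 over the receptor genes taken as background, and differences of -0.14 to 0.071. The groups parted in 3 of them (Wnt2, Wnt8b and Wnt11), with the ethanol arrays lower at a level where no signal can be told from background. With no filter on dim genes, the ethanol arrays lay below all saline arrays in 15.9% of all 19938 genes and above in 6.04%. Over the tested genes alone these shares were 14.9% and 7.68%.

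Other genes of the pathway were read from 6 lists, chosen with earlier results of these data known, of 103 genes on the array, of which 99 were tested. One of them passed in limma, Jun, a subunit of AP-1 that is a TCF target among many other inputs, with a difference of 1.22 ± 0.13 (limma adjusted p = 0.00211). That call was lost without ethanol array 4 (limma adjusted p = 0.112), when every probeset was tested (0.213) and with no variance prior (0.315). Higher calls made up 0.0602% of all tested genes and lower calls 0.0201%. At an unadjusted p under 0.05 there were 11 of the 99, or 11.1%, beside 12.3% of all tested genes, 4 higher and 7 lower. The median over the list was 0.018, with 61 above 0 (61.6%) and 38 below, beside 41.4% of all tested genes above 0.

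Among 13 tested genes widely used as canonical targets, 5 had an unadjusted p under 0.05, Jun higher (7.69% of the list, beside 3.85% of all tested genes) and 4 lower (30.8%, beside 8.44%). The list was chosen with earlier results of these data known, so these shares describe it and are not a test of it. Ccnd1, the cyclin that drives entry into the cell cycle, was at 9.76 and 9.79 with ethanol and 10.1, 10.1, 10.1 and 10.0 with saline. The ethanol arrays were lower than every saline array by 0.22 at the nearest. Its difference was -0.30 ± 0.061 (SE, limma adjusted p = 0.0827), which passed at 0.05 with the dimmest 50% of genes left out or with an intensity trend in the variance prior. Myc, a growth-promoting transcription factor, was at 9.54 and 9.35 with ethanol and 10.1, 9.58, 9.74 and 9.80 with saline, all above the ethanol arrays. Its difference was -0.36 ± 0.11 (SE, limma adjusted p = 0.232). The growth factor gene Fgf18 had -0.19 ± 0.066 (limma adjusted p = 0.272) and the Notch ligand gene Jag1 -0.18 ± 0.067 (0.303; -0.11 without ethanol array 4). Axin2 and Lgr5, the members that are themselves widely used targets, had -0.081 and 0.14.

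Of 14 extracellular and secretion genes, 3 (21.4%) had an unadjusted p under 0.05 in limma and all 3 were lower. Over all tested genes 8.44% were lower and 3.85% higher at that level. Sostdc1, a secreted antagonist that binds LRP co-receptors, was at 9.35 and 9.28 with ethanol and 9.52, 9.75, 9.65 and 9.61 with saline, and the groups did not overlap. Its difference was -0.32 ± 0.070 (SE, limma adjusted p = 0.102). Sostdc1 is also strong in choroid plexus. Of 8 tested choroid plexus markers, 5 were below 0 and 3 above, limma gave 0 calls and 0 with an unadjusted p under 0.05, 1 was near background (Aqp1), and their summed linear signal was 8520 to 8753 on the ethanol arrays and 8589 to 9332 on the saline arrays. Whether choroid plexus content has a part in the Sostdc1 value was not tested. Ndp, which encodes the Fzd4 ligand norrin, had -0.18 ± 0.065 (limma adjusted p = 0.293), beside 0.045 for Fzd4 itself (0.029 without saline array 3). Kremen2, a Dkk1 receptor near background, had -0.19 ± 0.073 (limma adjusted p = 0.308).

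Of 28 tested genes of the destruction complex and transducers, 21 (75.0%) lay above 0 and 7 below, with a median of 0.037. Over all tested genes 41.4% lay above 0, with a median of -0.019. That all-gene median was -0.0041 after quantile normalization, so it moved with the scaling. Whether the sign count of this list moved with the scaling was not tested. Dact1, a Dishevelled-binding regulator, led this list, at 9.18 and 9.18 with ethanol and 8.95, 8.82, 9.03 and 9.05 with saline. All saline arrays were lower, and the difference was 0.22 ± 0.072 (SE, limma adjusted p = 0.250). No gene of this list passed in limma, and 2 had an unadjusted p under 0.05, both higher (7.14%, beside 3.85% of all tested genes). Of 15 planar polarity genes, Celsr1, an atypical cadherin, was the 1 with an unadjusted p under 0.05 (6.67%, beside 12.3% of all tested genes in either direction). Its difference was 0.18 ± 0.065 (limma adjusted p = 0.278). The 17 nuclear factors and 12 other receptors had 0 each in limma at that level, with differences from -0.093 to 0.12 and from -0.14 to 0.11.

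**Figure D4:**
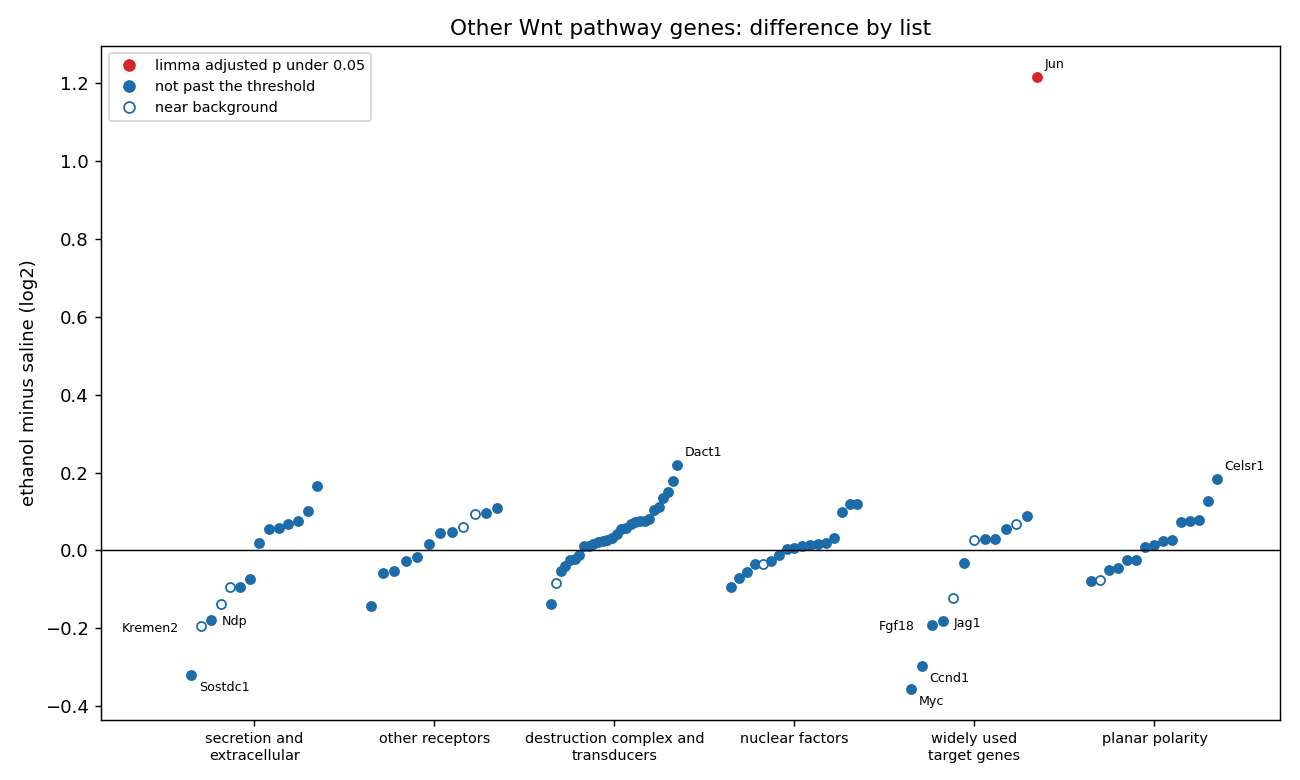
Ethanol minus saline difference (y axis, log2) of the 99 other tested pathway genes, sorted within each of 6 lists (x axis), with the 10 of smallest unadjusted p named; the red point passed in limma and open points are near background. Jun stands alone at 1.22, and the other points lie between -0.36 and 0.22.

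Endothelial, meningeal, astrocyte and cerebellar granule cell markers were read beside the members, since Wnt receptors and inhibitors are made by these cells too. Of 9, 10, 10 and 9 tested markers, 0 passed in limma and 1, 0, 1 and 1 had an unadjusted p under 0.05, beside 12.3% of all tested genes. The mean endothelial level was 8.50 to 8.55 on the ethanol arrays and 8.46 to 8.57 on the saline arrays, the meningeal level 8.37 to 8.47 and 8.35 to 8.41, the astrocyte level 9.87 to 9.95 and 9.90 to 9.93, and the granule cell level 9.18 to 9.26 and 9.18 to 9.30. The groups overlapped in each of these levels. Pituitary markers were the exception, at 5.96 to 6.60 with ethanol and 6.79 to 6.95 with saline over 5 tested genes (0 passed in limma, and 4 were lower at an unadjusted p under 0.05, beside 8.44% of all tested genes), with 6 of 9 near background (Prl, Pomc, Tshb, Lhb, Fshb and Tbx19). Their part in the members' values was not tested.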

How the data were processed

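Whole-brain RNA of 6 pools was measured on an Affymetrix whole-transcript array, 200 ng per pool, per the labels' protocols. The authors deposited 1 log2 value per probeset and array (4.10 to 14.9; the log base is not stated and was taken from this range). The values came from Partek 6.6, per the submitters' processing notes; how background and normalization were handled is not given in the sources used here; small shifts that go one way could reflect them. Of 35556 probesets, 21789 had 1 gene symbol, 1621 several and 12146 none; 21698 matched a current gene record. Each of 19938 genes was read from its probeset with the highest mean; the dimmest 25% (4985) were left out and 14953 tested. limma 3.58.1 (lmFit, eBayes) in R 4.3.3 was fitted with treatment as the only term over all 6 arrays, two-sided, with Benjamini-Hochberg adjustment over all tested genes and a threshold of 0.05; 4 residual and 8.10 prior degrees of freedom entered. Scripts were tested on simulated data. Replicates are pools of separate mice, and p-values reflect pool-to-pool spread only.

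The members and gene lists were chosen with earlier results of these data known. Members were named with values if they were among the 12 of smallest unadjusted p, the 2 of highest mean in a role, or had probesets in conflict with an unadjusted p under 0.05; others are given by range. From the other pathway genes the 10 of smallest unadjusted p were named. Alternatives were other filters on dim genes, other handling of probesets, 2 scalings, 3 variance models and each array left out. Tcf7, from the pathway lists, and some marker genes were not analysed here, and the 2 blood markers tested (0 called in limma, 0 at an unadjusted p under 0.05) were not used. Member 95% intervals are those of the limma fit.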

Additional observations from a re-analysis of the deposited data

Results flagged for a closer look

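Saline array 6 stood far above the other 3 saline arrays for 2 of the 33 named genes. For Axin1 it was at 7.56, where the other saline arrays were at 7.41, 7.42 and 7.43. For Lgr4 it was at 9.80, where the others were at 9.69, 9.70 and 9.69. The gap to the nearest array was 0.907 and 0.896 of the range of the group. Chance sets about 1 in 20 groups of 4 apart by this measure, so 2 of 33 is near that share.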

How the results depend on the processing

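No member passed in limma in any of the 15 alternatives (0 of those tested each time, with 1 to 6 higher and 0 to 3 lower at an unadjusted p under 0.05). Of the 23 named members, 20 kept their sign in all alternatives run for them. Leaving out an array gave -0.0046 to 0.083 for Wnt4, -0.033 to 0.11 for Lgr4 and -0.073 to 0.036 for Axin1. Wnt4 turned to -0.025 with the mean of its probesets and -0.0046 without saline array 1, Lgr4 to -0.033 without ethanol array 2, and Axin1 to 0.036 without ethanol array 4 and 0.017 without saline array 6. Members at an unadjusted p under 0.05 numbered 1 higher when every probeset was tested and 1 higher with no variance prior, and 1 lower with centred arrays and 1 lower after quantile normalization. The members counted changed too. With no variance prior Fzd6, Fzd9, Dkk3 and Sfrp4 had an unadjusted limma p of 0.053, 0.077, 0.12 and 0.14. Leaving out an array gave 2 to 4 higher and 0 to 3 lower. When the dimmest 50% were dropped, 19 members were tested. Of these, 3 had both ethanol arrays below all saline arrays and 5 above, beside 13.4% and 9.39% of all tested genes. After quantile normalization 4 of 37 lay below and 5 above, beside 12.7% and 11.2%. Leaving out an array gave 6 to 11 higher and 7 to 13 lower, the largest counts where 1 ethanol array was left. With 1 ethanol array, 17.2% to 20.2% of all tested genes lay above and 28.1% to 29.2% below. With a saline array left out, these shares were 8.12% to 11.4% and 15.9% to 23.8%. Such counts use no variance, while limma p-values with 1 ethanol array take it to vary like the saline arrays. The member median was 0.041 with the dimmest 50% left out (19 members), where that of all tested genes was -0.0059. After quantile normalization the member median was 0.044, beside -0.0041, and with an array left out it was -0.010 to 0.034. Over all genes, 52 passed with the dimmest 50% left out, 23 after quantile normalization, 43 with an intensity trend, 56 with array weights, and 0 over every probeset or with no variance prior (2618 and 1535 at an unadjusted p under 0.05); with an array left out 4 to 16 passed. Of the other pathway genes, 2 passed with the dimmest 50% left out or with an intensity trend (Jun and Ccnd1), 0 over every probeset or with no variance prior, and 0 to 1 with an array left out. Why the counts moved between alternatives was not tested. No paired analysis was possible because the groups share no replicate number and the labels do not say which arrays hold littermates. The median SE of a member's difference was 0.070, and values near background can understate a change.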
